A study of Mus musculus with 6 samples.

Results

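The Dlx genes are a family of 6 homeobox transcription factors, Dlx1 to Dlx6, described here in the mandibular arch of mouse embryos of strain C57BL/6 at stage E10.5. The members are the genes that the platform annotation of the arrays names Dlx1 to Dlx6: 6 of 18193 genes, read by 8 of the 34945 probe sets (groups of short probes against 1 transcript) that name 1 gene. Dlx1, Dlx2, Dlx5 and Dlx6 had 1 probe set each, and Dlx3 and Dlx4 had 2 each. All 8 are described whatever their level. A further 4 probe sets read non-coding RNAs transcribed beside the members: Dlx1as, Dlx4os, Dlx6os1 and Dlx6os2.

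Expression was measured on 6 Affymetrix Mouse Genome 430 2.0 arrays. In 3 of them the tissue was labelled Tbx1+/+, and in 3 it was labelled Tbx1-/-, homozygous for the mutant allele of this T-box transcription factor gene. Arches of 3 embryos were pooled per genotype and both genotypes carried the same strain label. The text of the series does not settle whether each array received a pool of its own, so that a p-value here reflects the scatter of these samples, which may be technical. Which exons of Tbx1 the mutation affects was not stated in what was used here, and the probe set of Tbx1 read 6.92 to 7.31 on the Tbx1+/+ arrays and 7.30 to 7.59 on the Tbx1-/- arrays. It therefore does not check the labels, and directions follow the genotype as labelled. Values are on a log2 scale on which the array medians lay between 6.08 and 6.15. Among genes of the labelled tissue, Prrx1, a homeobox gene of facial mesenchyme, read 12.98 to 13.16 over the 6 arrays. Hand2, of the distal arch, read 10.43 to 10.85. Some markers of other tissues read higher on Tbx1-/- arrays. Prl7a1, of placenta, read 13.28 on Tbx1-/- replicate 3, and Hoxa2, of the second arch, 4.72 to 6.34 over the Tbx1-/- arrays. On the Tbx1+/+ arrays they read at most 3.87 and 3.54. Hoxb2, listed with Hoxa2 as an otic or second arch marker, overlapped between genotypes. It read 4.25 to 4.57 on the Tbx1+/+ arrays and 4.57 to 4.65 on the Tbx1-/- arrays.

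Dlx proteins bind DNA through a homeodomain and set the identity of jaw structures along the axis from the base to the tip of the arch. The genes lie in linked pairs that face each other, Dlx1 with Dlx2, Dlx3 with Dlx4 and Dlx5 with Dlx6, and the members of a pair share enhancers. Their expression in the neural crest mesenchyme is nested: Dlx1 and Dlx2 are transcribed along most of the arch, proximal part included, Dlx5 and Dlx6 in the distal part, and Dlx3 and Dlx4 nearest the tip. Signalling by the peptide endothelin 1 keeps Dlx5 and Dlx6 active, and without both of these the lower jaw takes on features of the upper jaw. Dlx genes are also transcribed outside the arch mesenchyme, Dlx1, Dlx2, Dlx5 and Dlx6 in the forebrain and Dlx3 in ectoderm and placenta. Tbx1 itself is known from pharyngeal endoderm and from the mesoderm core of the arch, where muscle arises.

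To show where these transcripts begin, promoter windows are printed for the proximal pair, which RefSeq gives on opposite strands facing each other, and for Dlx6os1, whose annotated gene spans Dlx6. The RefSeq table (build GRCm38.p6) held windows of 300 bases, 250 before and 50 after a start, for 2 of the 6 members and for 3 of the neighbouring RNAs. The Dlx1 window is chr2:71529195-71529494 on the plus strand, that of Dlx2 is chr2:71546705-71547004 on the minus strand, and those of Dlx6os1 are chr6:6869484-6869783 and chr6:6861634-6861933, both on the minus strand. Each is written 5′ to 3′, and capitals mark TAATTA, a sequence that homeodomain proteins commonly bind and that reads the same on both strands.
Dlx1: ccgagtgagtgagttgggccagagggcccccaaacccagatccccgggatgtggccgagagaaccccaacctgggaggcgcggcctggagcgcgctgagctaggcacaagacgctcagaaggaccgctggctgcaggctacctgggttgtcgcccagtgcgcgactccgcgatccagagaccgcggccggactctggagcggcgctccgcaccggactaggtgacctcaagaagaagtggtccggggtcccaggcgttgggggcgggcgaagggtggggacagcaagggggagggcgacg
Dlx2: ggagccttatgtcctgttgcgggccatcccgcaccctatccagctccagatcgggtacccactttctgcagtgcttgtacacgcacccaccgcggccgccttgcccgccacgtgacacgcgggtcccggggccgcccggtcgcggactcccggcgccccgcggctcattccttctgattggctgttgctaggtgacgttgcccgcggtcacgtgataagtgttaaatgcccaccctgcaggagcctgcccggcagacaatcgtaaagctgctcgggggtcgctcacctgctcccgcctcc
Dlx6os1, upstream start: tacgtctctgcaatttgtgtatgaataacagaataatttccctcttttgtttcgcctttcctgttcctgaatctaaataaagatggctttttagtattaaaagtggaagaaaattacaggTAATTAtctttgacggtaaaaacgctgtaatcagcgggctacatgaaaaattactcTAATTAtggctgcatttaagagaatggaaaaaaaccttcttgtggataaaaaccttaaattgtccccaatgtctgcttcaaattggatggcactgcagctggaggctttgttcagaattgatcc
Dlx6os1, downstream start: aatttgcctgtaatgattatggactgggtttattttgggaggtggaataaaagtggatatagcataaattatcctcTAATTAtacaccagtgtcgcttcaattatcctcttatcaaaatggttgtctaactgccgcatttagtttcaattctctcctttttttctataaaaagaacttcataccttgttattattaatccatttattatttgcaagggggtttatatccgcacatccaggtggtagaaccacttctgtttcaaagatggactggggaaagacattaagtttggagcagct

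The windows of Dlx1 and Dlx2 were rich in G and C, at 69.3% and 66.3%, against a median of 52.7% over all 32851 windows of this length, and held no TAATTA. Both Dlx6os1 windows were poor in G and C, at 35.7% and 35.3%. TAATTA occurred 2 times in the upstream one and 1 time in the downstream one, and in 5.29% of all windows. GGTGTG, the core of a T-box site, was searched on both strands and was in none of the 6 windows of the family, against 19.0% of all windows. The motifs do not overlap each other. A match describes letters and not a bound site, and a missing match concerns only these windows.

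None of the 6 Dlx genes passed the test between genotypes, and the readings of both genotypes overlapped for each of the 8 probe sets. The test was limma's moderated test over 16073 genes with Benjamini-Hochberg adjustment at 0.05, which called 6 genes, or 0.0373% of those tested (0.0124% higher and 0.0249% lower). With the replicate number as a block it called 10 genes, and without Tbx1+/+ replicate 3 it called 0. It called 0 of the 6 Dlx genes in each of these fits. An unadjusted p under 0.05 was reached by 2.68% of all genes, 1.47% higher and 1.20% lower, and by 0 of the 6 Dlx genes. Their adjusted p-values were all 1.00. A second limma fit over all 45037 probe sets called 2, or 0.00444%, and 11 with the replicate block, and 0 of the 8 of this family. An unadjusted p under 0.05 was reached by 2.55% of all probe sets and by 0 of these 8. Groups did not overlap for 6.50% of all probe sets and for 0 of the 8. In a dissected tissue, fewer cells that transcribe a gene and less RNA per cell cannot be told apart.

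The direction of the small differences was the same throughout. All 8 probe sets had a lower mean on the Tbx1-/- arrays, where 53.4% of all probe sets did. The sets share the same 6 arrays, and the arrays at both ends recur: Tbx1+/+ replicate 1 was the highest of the 6 on 6 of the 8 sets, and Tbx1-/- replicate 1 was the lowest on 5 of them. Without Tbx1+/+ replicate 1 the mean was lower for 7 of the 8, with Dlx2 the exception. Without Tbx1+/+ replicate 3 it was likewise lower for 7, with the brighter set of Dlx3 the exception. Each of the other omissions left all 8 lower. The median difference of the 6 genes was -0.15 on the log2 scale, against -0.01 over all genes tested.

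**Figure D1:**
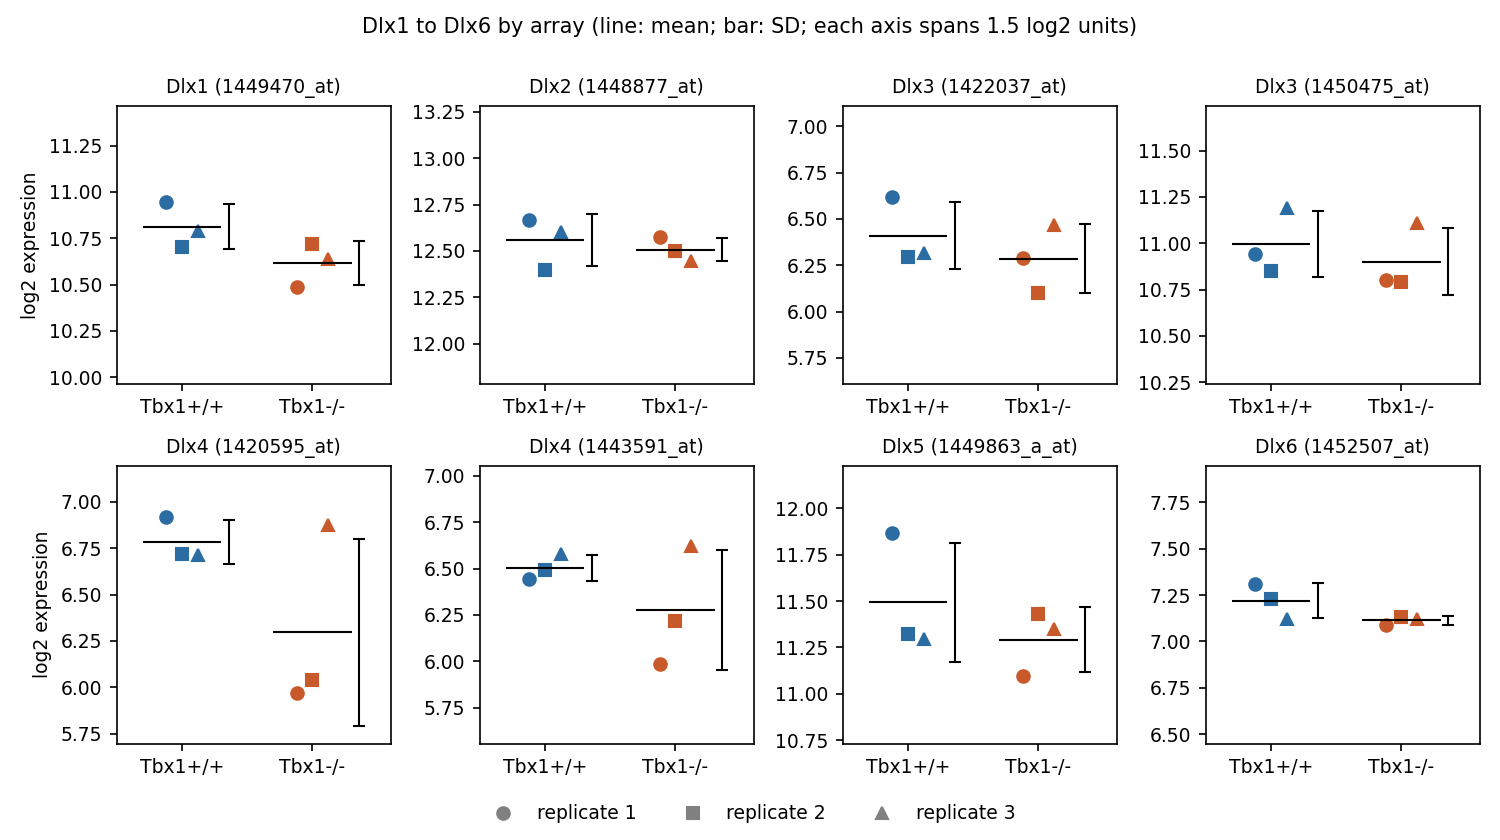
Log2 expression of the 8 probe sets of Dlx1 to Dlx6 on each array, by genotype at Tbx1 (symbols: replicate number; line: mean; bar: SD, n = 3). The genotypes overlap in every panel, and the lowest points of the Dlx4 panels are Tbx1-/- replicates 1 and 2.

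Among the proximal pair, Dlx2 is one of the Dlx genes transcribed earliest in migrating neural crest, and with Dlx1 is needed for the skeleton of the upper jaw. Dlx2 read 12.67, 12.40 and 12.60 on Tbx1+/+ replicates 1 to 3, and 12.57, 12.50 and 12.45 on Tbx1-/- replicates 1 to 3. The Tbx1-/- arrays thus lay inside the range of the Tbx1+/+ arrays. The difference was -0.05 (SE 0.08; 95% interval -0.23 to 0.13; limma, adjusted p = 1.00), and 0.0063 without Tbx1+/+ replicate 1.

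Dlx1, its linked partner, read 10.94, 10.70 and 10.79 on the Tbx1+/+ arrays and 10.49, 10.72 and 10.64 on the Tbx1-/- arrays. Only Tbx1-/- replicate 2 reached into the range of the Tbx1+/+ arrays, between replicates 2 and 3 of that genotype. The difference was -0.20 (SE 0.09; 95% interval -0.41 to 0.02; limma, adjusted p = 1.00). Dlx1as, an RNA whose annotated gene overlaps Dlx1, read 9.25, 9.49 and 8.87 on the Tbx1+/+ arrays and 8.19, 8.97 and 8.83 on the Tbx1-/- arrays. Its value on Tbx1-/- replicate 1 stood below the other 5. The difference of -0.54 (SE 0.22) had an unadjusted p of 0.0400 and an adjusted p of 1.00 in limma, and shrank to -0.30 without that array. Which strand the Dlx1 and Dlx1as probe sets read was not checked here.

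Dlx5, the better studied gene of the distal pair and a later regulator of bone-forming cells, read 11.87, 11.32 and 11.29 on the Tbx1+/+ arrays and 11.10, 11.43 and 11.35 on the Tbx1-/- arrays. Tbx1+/+ replicate 1 was high and Tbx1-/- replicate 1 low, and the other 4 arrays lay within 11.29 to 11.43. The difference was -0.20 (SE 0.16; 95% interval -0.56 to 0.16; limma, adjusted p = 1.00). It came to -0.02 without Tbx1+/+ replicate 1 and to -0.10 without Tbx1-/- replicate 1.

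Dlx6 overlaps Dlx5 in function. It read 7.31, 7.23 and 7.12 on the Tbx1+/+ arrays and 7.09, 7.13 and 7.12 on the Tbx1-/- arrays, the narrowest range of the family at 0.22. The difference was -0.10 (SE 0.10; 95% interval -0.34 to 0.13; limma, adjusted p = 1.00). Dlx6os1, the non-coding RNA also called Evf2, which acts on the enhancers of this pair in the forebrain, averaged 9.80 ± 0.11 (SD, n = 3) on the Tbx1+/+ arrays and 9.73 ± 0.11 (SD, n = 3) on the Tbx1-/- arrays. Its difference was -0.06 (SE 0.10). Dlx6os2 read between 2.80 and 3.15 on all arrays, below the level of 4 used as the filter for genes, so that its difference of -0.02 has a weak basis.

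Dlx3 is the member with roles in ectoderm, hair, teeth and placenta. Its brighter probe set read 10.94, 10.85 and 11.19 on the Tbx1+/+ arrays and 10.80, 10.79 and 11.11 on the Tbx1-/- arrays, and in both genotypes replicate 3 was the highest. Between arrays of equal replicate number the Tbx1-/- array read lower each time on this set. On the dimmer set it read lower for replicates 1 and 2 and higher for replicate 3, at 6.47 against 6.32. The difference on the brighter set was -0.10 (SE 0.12; 95% interval -0.37 to 0.18; limma, adjusted p = 1.00). The dimmer set averaged 6.41 ± 0.18 (SD, n = 3) on the Tbx1+/+ arrays and 6.29 ± 0.18 (SD, n = 3) on the Tbx1-/- arrays, a difference of -0.12 (95% interval -0.46 to 0.22). The platform annotation gives the same transcript record for both sets, yet their Tbx1+/+ means were 6.41 and 10.995, so a reading does not measure how much transcript there is.

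Dlx4, the member at the tip of the nested pattern, had the largest difference of the 6 genes and the least even readings. The brighter probe set read 6.92, 6.72 and 6.71 on the Tbx1+/+ arrays and 5.97, 6.04 and 6.88 on the Tbx1-/- arrays. Tbx1-/- replicates 1 and 2 lay below all Tbx1+/+ arrays, and Tbx1-/- replicate 3 lay among them. The difference was -0.49, a 1.40-fold lower mean (SE 0.23; 95% interval -1.01 to 0.04; unadjusted p = 0.0648, adjusted p = 1.00 in limma).

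On the other set of Dlx4 the same 2 arrays, Tbx1-/- replicates 1 and 2, were the lowest, and the order of the other 4 differed. It read 6.44, 6.49 and 6.58 on the Tbx1+/+ arrays and 5.99, 6.22 and 6.62 on the Tbx1-/- arrays, so that replicate 3 of Tbx1-/- was the highest of all 6. The difference was -0.23 (95% interval -0.61 to 0.16), and -0.08 without Tbx1-/- replicate 1. Without that array the brighter set differed by -0.33. Dlx4os, whose annotated gene overlaps Dlx4, read 7.98, 7.84 and 7.86 on the Tbx1+/+ arrays and 6.997, 7.56 and 7.71 on the Tbx1-/- arrays. It was the 1 probe set of the 12 in the family and its neighbours whose genotypes did not overlap, where 3.42% of all probe sets were lower without overlap. The difference was -0.47 (SE 0.18), with an unadjusted p of 0.0304 and an adjusted p of 1.00 in limma, and came to -0.26 without Tbx1-/- replicate 1.

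Tbx1-/- replicate 3 stood apart from the other arrays, with 249 genes exceeding the average of the other arrays by over 1 log2 unit; the remaining arrays had 6 to 32 such genes. Placental trophoblast markers, taken because Dlx3 is also transcribed there, were among them: their signal, summed on the linear scale over the 15 of 21 with a probe set, was 3247 to 3412 on the Tbx1+/+ arrays, 3695 and 3566 on Tbx1-/- replicates 1 and 2, and 36605 on replicate 3. Most of the sum on the other 5 arrays was Tfap2c, at 11.26 to 11.46, which is also in the list of oral and arch ectoderm markers. Of the 15 placental markers, 9 were tested and 0 passed in limma, with 1 higher and 0 lower by unadjusted p below 0.05. Prl7a1, a placental prolactin, read 3.53 to 4.76 on the other 5 arrays and 13.28 on this one, and passed the filter only through the Tbx1-/- arrays. Without this array Dlx4 differed by -0.78 on its brighter set (adjusted p = 0.119 in limma) and by -0.40 on the other, and the Dlx3 sets by -0.20 and -0.21. All 4 differences were larger in size than with it. The part of placental transcripts in the Dlx3 and Dlx4 readings of that array was not tested.

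**Figure D2:**
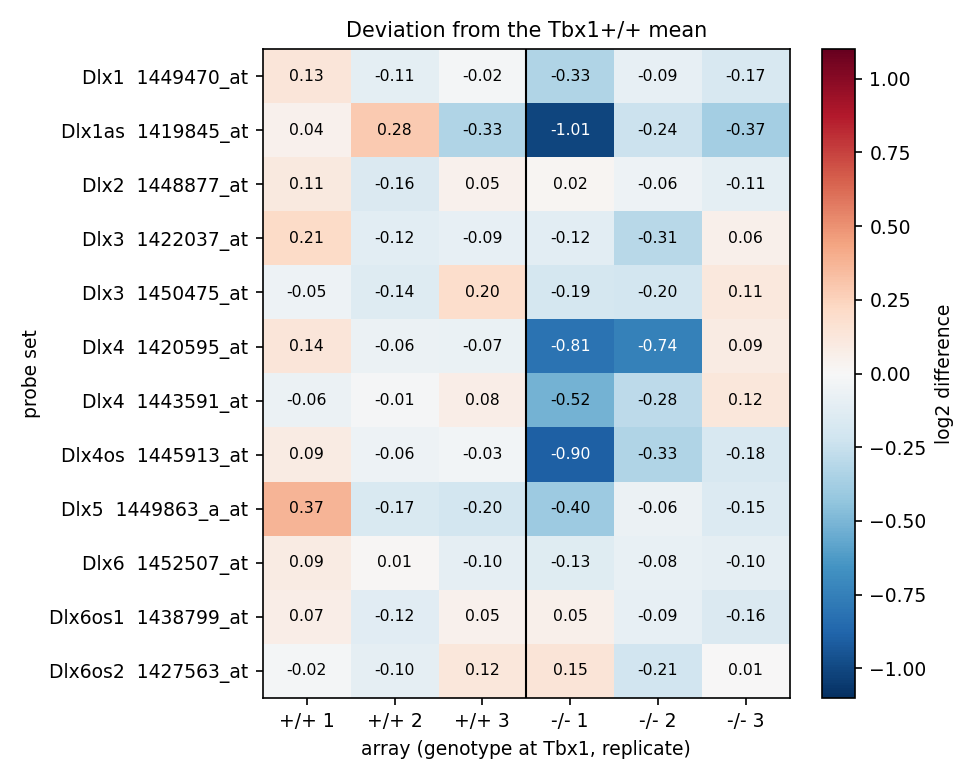
Deviation of each Dlx probe set and non-coding neighbour from its Tbx1+/+ mean (log2; columns: arrays by genotype at Tbx1 and replicate; blue: below, red: above). The largest deviations are on Tbx1-/- replicate 1, at -1.01 for Dlx1as and -0.90 for Dlx4os, and Tbx1-/- replicate 3 is near or above 0 for Dlx3 and Dlx4.

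Taken by array, the median deviation of the 8 probe sets from their Tbx1+/+ means was -0.26 on Tbx1-/- replicate 1, -0.15 on replicate 2 and -0.02 on replicate 3. On the Tbx1+/+ arrays it was 0.12, -0.11 and -0.05 on replicates 1 to 3. Over all genes tested the same medians lay between -0.02 and 0.03. The medians of the 8 probe sets thus scattered over a similar width in both genotypes. Single sets did not: the SD of the brighter Dlx4 set was 0.12 on the Tbx1+/+ arrays and 0.50 on the Tbx1-/- arrays. For Dlx6 it was 0.09 and 0.02. Some marker sums were highest on Tbx1-/- replicate 1: neuron and crest glia markers summed to 2277 there, against 1716 to 1894 on the Tbx1+/+ arrays. Most of this sum was Isl1, which is also in the core mesoderm list and read 10.84 there against 10.34 to 10.52 on the other 5 arrays. The neuronal genes Tubb3 and Elavl3 and the glial gene Sox10 read 6.10, 5.16 and 5.53 there, none of them above the Tbx1+/+ means. In the other direction, Stmn2, Neurod1, Pou4f1 and Elavl4, also neuronal, read 5.71, 4.40, 5.28 and 6.76 there, each above every Tbx1+/+ array. Over the Tbx1-/- arrays Stmn2, Neurod1 and Pou4f1 were higher without overlap, where 3.17% of all genes were. Pharyngeal endoderm markers summed to 1656 on Tbx1-/- replicate 1, against 1252 to 1422 on the Tbx1+/+ arrays. The jaw mesenchyme homeobox genes summed to 23370 on that array, next to the lowest Tbx1+/+ array in a range of 23420 to 25476. Over these lists, 0 of 10 neuron and glia, 0 of 8 endoderm and 0 of 13 jaw genes tested passed in limma (2 higher, 0 and 1 higher at an unadjusted p under 0.05). Their part in the Dlx readings was not tested.

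**Figure D3:**
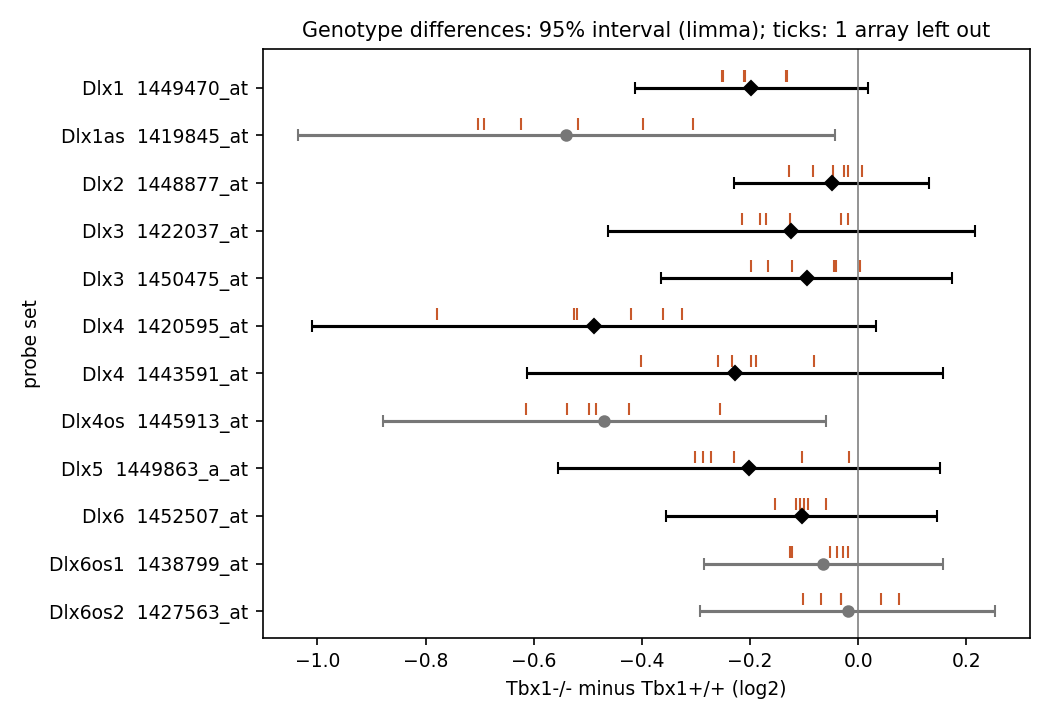
Differences between genotypes (Tbx1-/- minus Tbx1+/+, log2) for the 12 probe sets with 95% intervals from limma over all probe sets (black diamonds: Dlx1 to Dlx6; grey circles: non-coding neighbours; ticks: values with 1 array left out). The intervals of the 8 member sets reach over 0, and Dlx4 has the widest, from -1.01 to 0.03.

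The linked pairs were also compared within each array, since the affinity of a probe set cancels when the same difference is followed across arrays. No test is given for these differences. Dlx1 minus Dlx2 was -1.74 ± 0.06 (SD, n = 3) on the Tbx1+/+ arrays and -1.89 ± 0.17 (SD, n = 3) on the Tbx1-/- arrays. Dlx5 minus Dlx6 was 4.28 ± 0.25 (SD, n = 3) and 4.18 ± 0.15 (SD, n = 3). Both pairs overlapped between genotypes.

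Dlx3 minus Dlx4 was 4.02, 4.13 and 4.48 on the Tbx1+/+ arrays and 4.83, 4.75 and 4.23 on the Tbx1-/- arrays. It was wider on Tbx1-/- replicates 1 and 2 than on any Tbx1+/+ array, while replicate 3 lay among them, as for Dlx4 alone. The distal pair against the proximal one, as the mean of Dlx5 and Dlx6 minus that of Dlx1 and Dlx2, was -2.33 ± 0.14 (SD, n = 3) on the Tbx1+/+ arrays and -2.36 ± 0.07 (SD, n = 3) on the Tbx1-/- arrays. This balance differed by -0.03 between genotypes, less than the spread within either. With 1 array left out it ranged from -0.11 without Tbx1+/+ replicate 3 to 0.02 without Tbx1+/+ replicate 1, so it has no settled sign. For Dlx3 and Dlx4 against the proximal pair the values were -2.79 ± 0.07 (SD, n = 3) and -2.96 ± 0.36 (SD, n = 3), a difference of -0.17. It was -0.37 without Tbx1-/- replicate 3, -0.05 without Tbx1-/- replicate 2 and -0.08 without Tbx1-/- replicate 1.

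**Figure D4:**
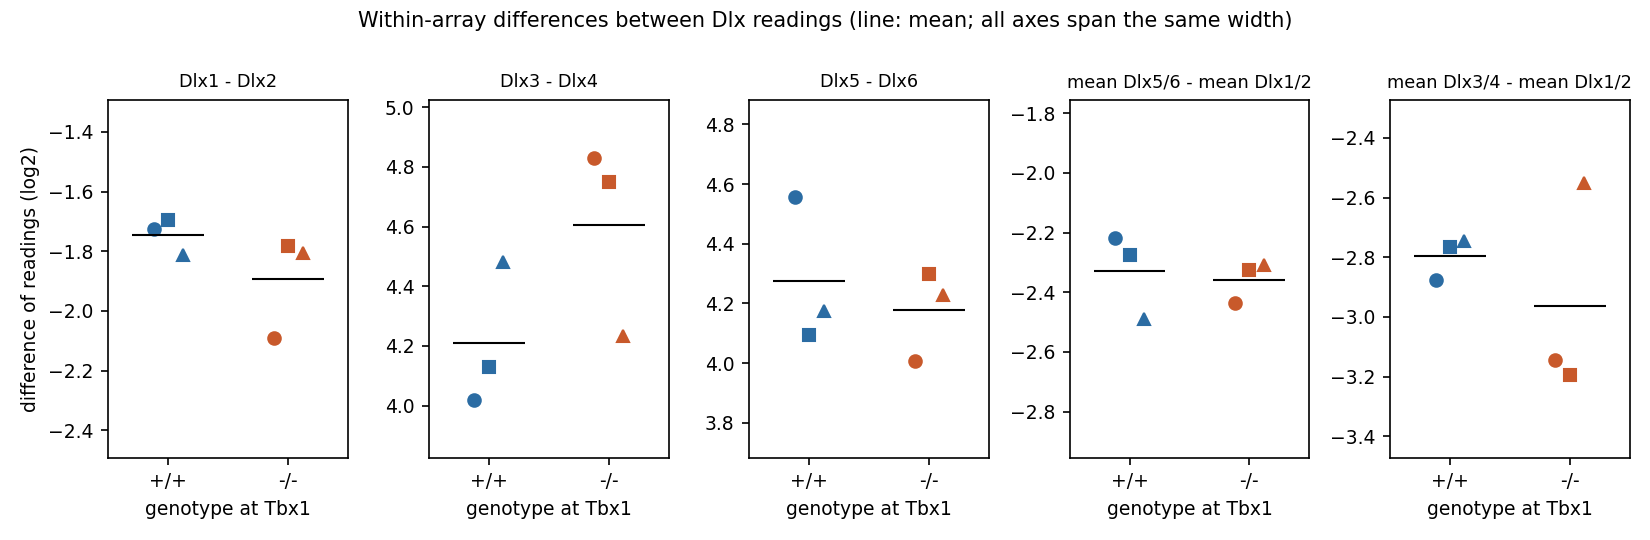
Differences between readings of Dlx genes within each array (log2), by genotype at Tbx1 (symbols: replicates 1 to 3 as circle, square and triangle; line: mean). The genotypes overlap in all 5 panels, and the widest split is that of Tbx1-/- replicates 1 and 2 from replicate 3 for Dlx3 and Dlx4.

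As raw readings on the Tbx1+/+ arrays, Dlx2 stood highest with a mean of 12.56, then Dlx5 with 11.49, Dlx3 with 10.995, Dlx1 with 10.81, Dlx6 with 7.22 and Dlx4 with 6.78. The order was the same on the Tbx1-/- arrays, at 12.51, 11.29, 10.90, 10.61, 7.11 and 6.30. It is an order of probe set readings and not of transcript amounts, as the sets of Dlx3 show. All 6 lay above the filter level of 4 on every array.

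Dlx4 ranged over 0.95 across the arrays, the widest of the 6, and was therefore the member for which like patterns were sought. Likeness was the mean absolute difference, over the 6 arrays, between the deviations of both genes from their own means. Nearest was Ccn2, a secreted matrix protein also called connective tissue growth factor, at 0.06, followed by Tpm2, a tropomyosin, at 0.14 and Dlx4os at 0.14. Ccn2 read 10.46, 10.51 and 10.47 on the Tbx1+/+ arrays and 9.68, 9.78 and 10.58 on the Tbx1-/- arrays, with the same low replicates 1 and 2.

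Genes that act upstream of the Dlx family were read from lists. The tested genes of the endothelin list were ligands, the receptor Ednrb, converting enzymes and the signal chain to Mef2c. The receptor Ednra was not among them, so the list does not describe it. In this list 0 of 12 tested genes passed in limma, with 1 higher and 0 lower by unadjusted p below 0.05. The median difference was 0.04. Edn1, the ligand that maintains Dlx5 and Dlx6, read 5.82, 5.99 and 5.98 on the Tbx1+/+ arrays and 6.23, 6.14 and 5.96 on the Tbx1-/- arrays, a difference of 0.18 (SE 0.12). The 1 gene with separate groups was Ednrb, the endothelin receptor of pigment and enteric crest cells, at 7.60 to 7.85 and 7.89 to 8.13 (difference 0.33, SE 0.12, adjusted p = 1.00). Mef2c, a MADS-box factor through which the endothelin signal reaches the Dlx5 and Dlx6 locus, differed by 0.01 (SE 0.12). Groups did not overlap for 6.43% of all genes, and 3.17% were higher without overlap.

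Secreted signals and mesenchymal regulators upstream of the family gave 0 of 17 past the threshold, with 0 higher and 4 lower by unadjusted p below 0.05 and a median of -0.06. Fgf8 and Bmp4, ectodermal signals that induce Dlx genes, differed by 0.11 (SE 0.13) and 0.01 (SE 0.16). The 3 with the smallest p were forkhead factors of the mesenchyme, each lower without overlap, where 3.25% of all genes were. Foxc1 read 10.05 to 10.29 on the Tbx1+/+ arrays and 9.56 to 9.64 on the Tbx1-/- arrays, a difference of -0.54 (SE 0.09, adjusted p = 0.293). Foxc2 differed by -0.55 (SE 0.10, adjusted p = 0.293) and Foxd1 by -0.59 (SE 0.11, adjusted p = 0.340). All 3 thus differed by more than any Dlx gene, relative to their spread, and none passed in limma.

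Downstream, genes of the distal arch that depend on Dlx5 and Dlx6 gave 0 of 11 past the threshold, with 1 higher and 1 lower by unadjusted p below 0.05 and a median of -0.10. This list holds Dlx3, Dlx4 and Dlx6os1 themselves. Gbx2, a homeobox gene that needs Dlx5 and Dlx6, read 8.27, 8.28 and 7.94 on the Tbx1+/+ arrays and 6.93, 7.44 and 7.55 on the Tbx1-/- arrays, without overlap (difference -0.86, SE 0.18, adjusted p = 0.543). Hand2, a basic helix-loop-helix factor of distal identity, differed by 0.12 (SE 0.11) in the opposite direction. Hand1, its relative, differed by 0.42 (SE 0.25), with its highest value, 9.63, on Tbx1-/- replicate 3, and is itself a trophoblast gene. Gsc, goosecoid, differed by -0.33 (SE 0.22), and Cited1, a transcriptional coactivator, by -0.10 (SE 0.15). Alx4, a homeobox gene also in the jaw mesenchyme list, was higher without overlap. It read 4.68 to 4.98 on the Tbx1+/+ arrays and 5.06 to 5.33 on the Tbx1-/- arrays (difference 0.32, SE 0.13).

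Genes of proximal identity gave 0 of 10 past the threshold, with 0 higher and 1 lower by unadjusted p below 0.05 and a median of 0.07. Pou3f3, a POU factor of the upper jaw domain that Dlx5 and Dlx6 keep out of the distal arch, read 9.27, 9.57 and 8.80 on the Tbx1+/+ arrays and 8.70, 9.23 and 9.44 on the Tbx1-/- arrays, with full overlap (difference -0.09, SE 0.23). Foxl2, a forkhead factor, was the member with separate groups, at 7.10 to 7.32 and 6.34 to 6.80 (difference -0.57, SE 0.15, adjusted p = 1.00). Irx5, an Iroquois homeobox gene, differed by 0.24 (SE 0.16).

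**Figure D5:**
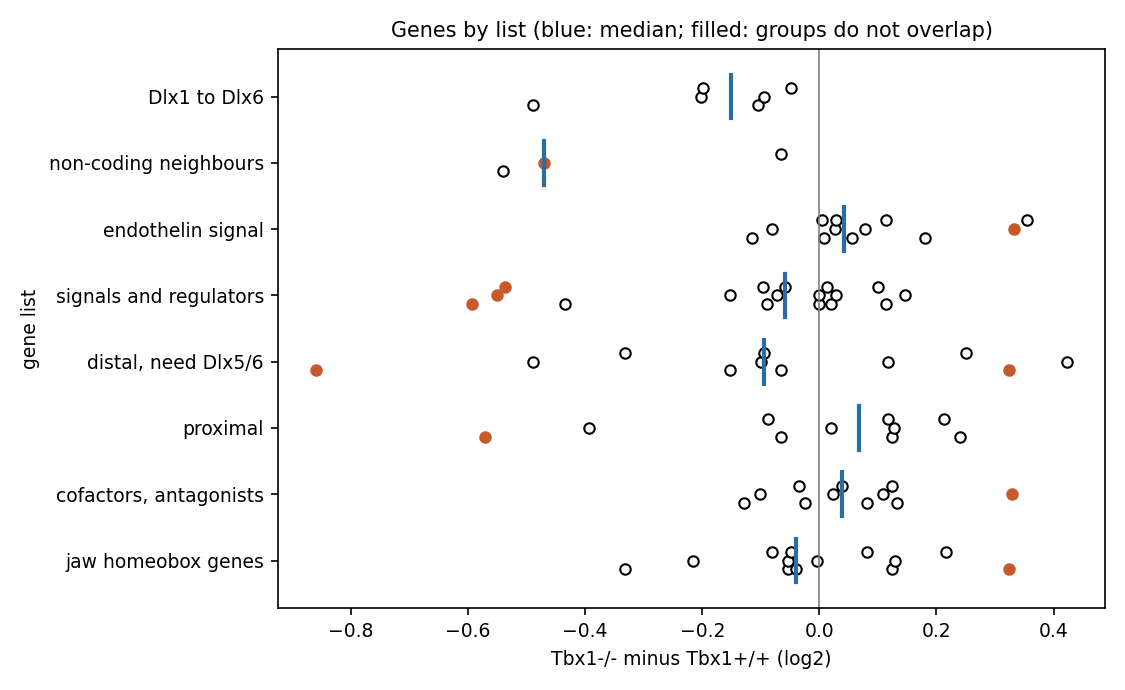
Differences between genotypes (Tbx1-/- minus Tbx1+/+, log2) of the tested genes of each list (points; filled: the 3 arrays of each genotype do not overlap; blue line: median of the list). The 6 Dlx genes all lie below 0, at -0.49 to -0.05. The medians of the lists of upstream, distal, proximal, cofactor and jaw genes drawn here lie between -0.10 and 0.07. The lowest of these medians is of the distal list, which holds Dlx3, Dlx4 and Dlx6os1, and marker lists of other tissues are not drawn.

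Cofactors and antagonists of Dlx proteins gave 0 of 11 past the threshold, with 1 higher and 0 lower by unadjusted p below 0.05 and a median of 0.04. Msx1 and Msx2, homeodomain repressors that pair with Dlx proteins, differed by 0.08 (SE 0.08) and 0.12 (SE 0.10), and Maged1, which binds Dlx5, by 0.04 (SE 0.09). The homeobox genes of the jaw mesenchyme gave 0 of 13, with 1 higher and 0 lower by unadjusted p below 0.05 and a median of -0.04. Barx1 and Pitx1, both of the mandibular arch, differed by -0.05 (SE 0.14) and -0.04 (SE 0.10), and Lhx6 and Lhx8, LIM homeobox genes of the oral side, by -0.05 (SE 0.10) and -0.05 (SE 0.07).

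Tissues beside the arch that transcribe Dlx genes were checked as well. Forebrain markers summed to 782 to 926 on the Tbx1+/+ arrays and 526 to 688 on the Tbx1-/- arrays. The list gave 0 of 9 past the threshold in limma, with 1 higher and 1 lower by unadjusted p below 0.05, and Gad1 and Gad2, which mark the Dlx-expressing neurons of the forebrain, read at most 4.32 on every array. Emx2, which is not specific to the forebrain, carried most of the sum on the Tbx1+/+ arrays, at 8.71 to 9.23, and read 6.95 to 8.29 on the Tbx1-/- arrays. Otx2, of the same list, went the other way, at 6.31 to 6.85 on the Tbx1+/+ arrays and 6.91 to 7.51 on the Tbx1-/- arrays. Oral and arch ectoderm markers summed to 20028 to 22148 and 22713 to 38020, highest on Tbx1-/- replicate 3, with 0 of 14 past the threshold (3 higher and 0 lower by unadjusted p below 0.05). Krt8, Krt18 and Krt19 read 12.69, 13.50 and 11.65 on that array, against at most 10.85, 12.10 and 9.62 on any other array. Krt5 and Trp63 went the other way and were lowest on that array, at 6.56 and 11.20. Krt5 differed by -0.60 (SE 0.28) between genotypes. Krt18, Krt19 and Tfap2c were higher without overlap, where 3.17% of all genes were, while Epcam, Krt5 and Trp63 overlapped between genotypes. Tfap2c is also in the placental list. Hoxa2, which marks the second arch, where Dlx genes are transcribed too, read at most 3.54 on the Tbx1+/+ arrays and 4.72 to 6.34 on the Tbx1-/- arrays. Hoxa2 passed the filter only through the Tbx1-/- arrays, where it was high, so its test is not given. The other tested genes of its otic and second arch list overlapped between genotypes, and none passed in limma. Gata3, Hoxb2, Oc90 and Hmx2 differed by 0.27, 0.17, 0.01 and -0.05. Blood and endothelial markers gave 0 of 7, with 0 by unadjusted p below 0.05. The part of these tissues in the Dlx readings was not tested. In the core mesoderm list 2 of 8 genes fell, where 0.0249% of all genes were called lower, and by unadjusted p below 0.05 there were 6 lower and 1 higher, which was Tbx1. Those that passed were Tcf21 and Myf5, at -1.53 (SE 0.13, adjusted p = 0.0185) and -2.33 (SE 0.27, adjusted p = 0.0492) in limma. Neither passed when any 1 of the Tbx1+/+ arrays was left out. Over all genes 1 was then called without replicate 1, 1 without replicate 2 and 0 without replicate 3.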

How the data were processed

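Each probe set has 1 log2 value per array in the table as deposited, which the authors made with GCRMA, per the submitters' processing notes; its version was not stated. GCRMA corrects background by probe sequence and compresses differences near it. RNA was amplified from 100 ng of total RNA, per the labels' protocols. The 64 control sets were left out of 45101. Of the rest, 34945 named 1 gene, 932 several and 9160 none; 34741 matched the RefSeq gene table by gene ID, with 0 symbols changed.

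Genes were represented by the probe set with the highest mean and kept when it exceeded 4 on at least 3 arrays (16073 genes). Genotypes were compared with limma 3.58.1 in R 4.3.3 (lmFit, eBayes with intensity trend, Benjamini-Hochberg, two-sided), over genes and, unfiltered, over all 45037 probe sets. The step was tested on simulated data. The members, lists and rules were chosen with earlier results of these data known. Named were the family, Tbx1, genes fixed by name, up to 3 genes per list with the smallest p, and the 3 genes most like the widest-ranging member; not all are printed. Genes outside this rule, such as Prrx1, Tubb3, Sox10, Krt5, Krt8, Epcam and Trp63, were chosen after their values were seen.

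Both genotypes carry replicate numbers 1 to 3 in the labels. Equal numbers deviated together, with correlations of 0.26, 0.13 and 0.14 over genes. The main fits still held genotype alone, so their SE, intervals and p-values do not use this pairing. The fit with the replicate block, which does use it, is an alternative. Alternatives changed the choice of probe set, filter, floor, trend, normalization, array weights and arrays used. No 2 arrays were identical: differences between arrays of a genotype had an SD of 0.25 to 0.41.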

Additional observations from a re-analysis of the deposited data

How the results depend on the processing

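No Dlx gene passed in limma under any of the 15 alternatives per gene, the lowest adjusted p being 0.119. Of these 90 values 88 kept the direction. With 1 array left out the differences ranged from -0.25 to -0.13 for Dlx1, -0.13 to 0.0063 for Dlx2, -0.20 to 0.0038 for Dlx3, -0.78 to -0.33 for Dlx4, -0.30 to -0.02 for Dlx5 and -0.15 to -0.06 for Dlx6, and from -0.10 to 0.075 for Dlx6os2, which was 0.042 without Tbx1+/+ replicate 3. The cause of the changes of sign was not tested. Unadjusted p was below 0.05 for Dlx4 with array weights, without Tbx1-/- replicate 3 and, in the fit over probe sets, with the replicate block, and for Dlx1 without Tbx1+/+ replicate 2. With estimated array weights Dlx5 differed by -0.06 and Dlx3 by -0.20. The mean of both Dlx4 sets differed by -0.36. Medians of the lists with 1 array left out, added after seeing the data, changed sign for 6 lists: they ranged from -0.10 to 0.02 for the upstream signals, -0.0065 to 0.13 for the proximal genes, -0.02 to 0.06 for the cofactors, -0.07 to 0.04 for the jaw homeobox genes, -0.02 to 0.16 for the endoderm markers and -0.03 to 0.04 for the forebrain markers. The placental median of 1.68 came to 0.11 without Tbx1-/- replicate 3.

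The background of called genes moved more. Against 6 genes, averaging all probe sets of each gene gave 0 (246 higher and 231 lower by unadjusted p below 0.05), no filter 2, values raised to 4 gave 2, no trend 2 and the replicate block 10; with 1 array left out it ranged from 0 (286 higher and 218 lower by unadjusted p below 0.05, without Tbx1+/+ replicate 3) to 22 without Tbx1-/- replicate 3. Against 2 probe sets, values raised to 4 gave 0 (522 higher and 638 lower by unadjusted p below 0.05), no trend 1, a further quantile normalization 1 and the replicate block 11, and with 1 array left out the range was 0 to 11. The replicate block changed no call of a Dlx gene. Readings near 4 are a weak basis for differences, and 3 arrays per genotype limit the precision.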
